A study of Mus musculus with 2 samples.

Results

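The mitotic neuroendocrine tumor cells described here are 1308 of the 8330 cell barcodes of both tumors, 259 in the tumor TKO1 and 1049 in the tumor TKO2. They were chosen on measured values: a barcode had to have more than 500 detected genes, fewer than 10 UMIs of Scgb1a1, the club cell secretoglobin, fewer than 5 UMIs summed over the macrophage and myeloid genes Lyz2, C1qa, C1qb, C1qc, Tyrobp and Fcer1g, and at least 5 UMIs summed over the 8 genes Ube2c, Birc5, Cenpa, Cenpf, Ccnb1, Ccnb2, Cdc20 and Nusap1. A UMI, or unique molecular identifier, stands for 1 captured transcript molecule. They were compared, within each tumor, with the eligible cells that held 0 UMIs of the 8 markers, 2358 in TKO1 and 1442 in TKO2.

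Both tumors came from the TKO mouse model of small cell lung cancer (SCLC), 1 tumor from each of 2 mice. The labelled genotype is Rb-/-; Trp53-/-; Rbl2-/-, with a Rosa26 allele coding for membrane-Tomato or membrane-GFP, on a mixed C57BL/6, 129/SVJ and 129/SvOla background. The mice were 8 to 9 months old, and the lung tumors were taken 7 months after Adeno-CMV-cre. Cre was delivered by an adenovirus with a promoter that is not limited to 1 lung cell type, so the cell in which a tumor began is not given by the model. Neither tumor has a control without the deletions. Live cells were sorted and captured on the 10x Chromium, with 1 library per tumor. Each tumor is therefore 1 sample. No test was run, since the cells compared were chosen on the values read, and every interval below is an exact 95% interval that covers counting error only.

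Mitosis is driven by the kinase CDK1 with cyclins A and B, and it ends when the anaphase-promoting complex, with its activator CDC20 and its ubiquitin-conjugating enzyme UBE2C, marks cyclin B and securin for destruction. Most genes of this program are read late in the cell cycle. In resting cells they are held silent by the DREAM complex, in which the MuvB core is joined by E2F and a pocket protein such as p130, the product of Rbl2. In cycling cells the MuvB core joins B-MYB and FOXM1 and activates the same genes. SCLC is a neuroendocrine tumor with a high mitotic rate, and loss of RB and p53 is its usual genetic background.

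The TKO1 library held 4514 barcodes and 5285038 UMIs, and the TKO2 library held 3816 barcodes and 8291430 UMIs. Of these, 3005 and 3466 barcodes were eligible by the limits on detected genes, Scgb1a1 and macrophage genes. The libraries shared 22 barcode sequences, of which 1 was a mitotic cell in TKO1 and 4 were mitotic cells in TKO2. Without the shared barcodes the number of genes at least 2-fold higher in both tumors was again 120.

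Transcripts of neuroendocrine genes were found in the mitotic cells of both tumors. Chga, which codes for the granule protein chromogranin A, was at 514 CPM (UMIs of the gene per 1000000 UMIs summed over the group) in mitotic cells and 979 CPM in 0-marker cells of TKO1, and at 73.8 and 140 CPM in TKO2. After each cell was thinned to 1000 UMIs, 34.1% of 226 mitotic cells of TKO1 held a Chga UMI (27.9 to 40.6%, unthinned 51.0%), against 4.55% of 66 barcodes over the macrophage limit of the same library (0.947 to 12.7%). In TKO2 6.85% of 1007 mitotic cells did (5.37 to 8.59%, unthinned 16.9%), against 0% of 82 macrophage barcodes, which allows a share of up to 3.66% by a limit of 3 cells. The macrophage barcodes should lack Chga and stand for the free RNA of each library. Insm1, a neuroendocrine transcription factor, was found at the same depth in 12.8% of mitotic cells of TKO1 (8.76 to 17.9%, unthinned 18.5%). Of the macrophage barcodes of TKO1, 4.55% held it (0.947 to 12.7%), so these intervals overlap. In TKO2 it was found in 11.8% of mitotic cells (9.89 to 14.0%, unthinned 26.7%), against 0% of macrophage barcodes with the same limit of 3.66%. Of the 26 neuroendocrine genes listed, all but Stmn2 in TKO1 were detected in mitotic cells. At 1000 UMIs Calca and Resp18 were found in 1.29% and 0.497% of mitotic cells of TKO2. These shares lie under the limit of 3.66% for the macrophage barcodes.

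Of the deleted genes, Trp53 and Rbl2 could not check the labels, and Rb1 was not analysed. Trp53 was at 36.5 CPM in mitotic and 50.8 CPM in 0-marker cells of TKO1 and at 57.6 and 69.5 CPM in TKO2. Rbl2 was at 7.68 and 10.6 CPM in TKO1 and at 2.49 and 1.94 CPM in TKO2. Whether the counted transcript ends lie outside the deleted exons is not given in the labels, so transcripts at these levels say nothing of the deletions.

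Mitotic cells, as named by their marker UMIs, were a larger share of TKO2. The cell cycle phase of each cell was not measured, so these shares are not a mitotic index. The mitotic cells made up 8.62% of the eligible cells of TKO1 (7.64 to 9.68%) and 30.3% of those of TKO2 (28.7 to 31.8%), while cells with 1 to 4 marker UMIs made up 12.9% and 28.1%. Depth differed too: the median mitotic cell held 1902 UMIs in TKO1 and 2675 in TKO2, against 1163 and 1621.5 UMIs in 0-marker cells. Mitochondria-encoded transcripts were 0.502% of the UMIs of mitotic and 0.582% of those of 0-marker cells in TKO1 and 0.869% and 1.06% in TKO2. With each eligible cell thinned to 1000 UMIs, 8.19% of 2161 cells in TKO1 (7.07 to 9.43%) and 15.2% of 3086 cells in TKO2 (13.9 to 16.5%) still held at least 5 marker UMIs. At 2000 UMIs the shares were 23.1% of 477 cells and 34.1% of 1692 cells. This depth leaves out most cells of each tumor, 2528 in TKO1 and 1774 in TKO2. The share was higher in TKO2 at both fixed depths, which describes these libraries and was not tested.

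**Figure D1:**
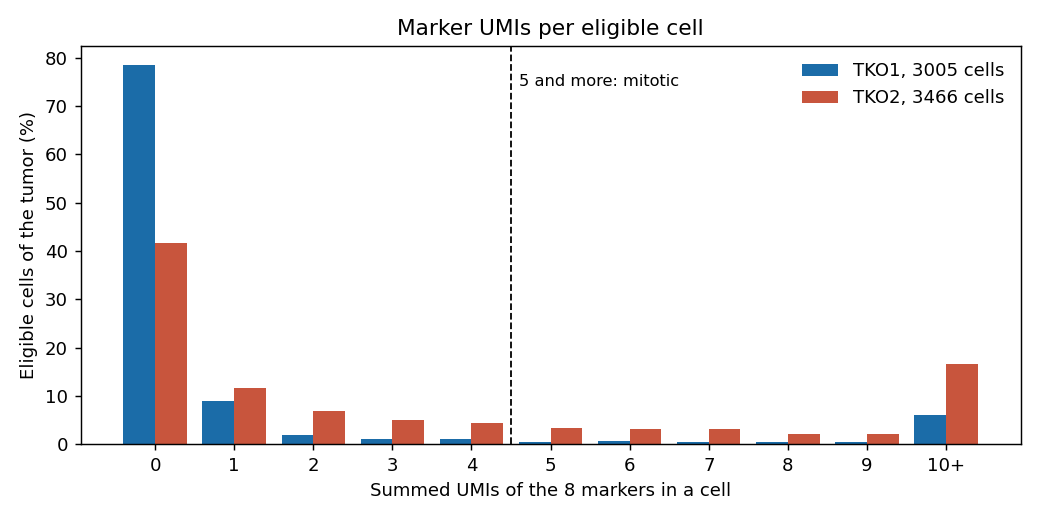
Percent of the eligible cells of each tumor (vertical axis) by the summed UMIs of the 8 markers in a cell (horizontal axis), with the dashed line at the limit for a mitotic cell. Cells with 0 marker UMIs were 78.5% of TKO1 and 41.6% of TKO2, and the last bar pair shows 6.06% and 16.5% with 10 or more.

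The marker content of the mitotic cells, which the rule used, is given as a description. The mitotic cells of TKO1 held 8.44 marker UMIs per 1000 UMIs, and those of TKO2 held 4.73. The median mitotic cell had 14 marker UMIs in TKO1 and 10 in TKO2, with a highest value of 53 and 88. A fixed limit of 5 UMIs admits deeper cells at a lower marker fraction, and the mitotic cells of TKO2 were the deeper ones, so no order of the tumors is read from these values. A median of 6 of the 8 markers was detected per mitotic cell of TKO1 and 5 in TKO2. All 8 were found in 51 cells (19.7%) and 106 cells (10.1%), and fewer than 4 in 23 (8.88%) and 179 (17.1%).

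The values on each side of the limit were close to each other beside the range of the mitotic cells. In TKO1 the 30 cells with 4 marker UMIs had 10063 CPM summed over the mitosis lists described below, and the 15 cells with 5 had 12953 CPM. In TKO2 the 154 cells with 4 had 8427 CPM and the 113 cells with 5 had 9551 CPM. In both tumors cells just under the limit were far above the 0-marker cells, at 3456 and 2841 CPM.

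Each of the 8 markers acts at a known step of mitosis. Ccnb1 and Ccnb2 code for the B-type cyclins. Ube2c and Cdc20 serve the anaphase-promoting complex. Birc5 codes for survivin, a subunit of the chromosomal passenger complex, Cenpa for the centromeric histone H3 variant, Cenpf for a kinetochore protein, and Nusap1 for a spindle-associated protein. They lie on chromosomes 13, 9, 2, 4, 11, 5, 1 and 2, in this order. In mitotic cells of TKO1 Ube2c was at 1689 CPM, Cenpa at 1250 CPM and Ccnb2 at 653 CPM. In those of TKO2 the same genes were at 1314, 790 and 272 CPM.

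Because the sum of the 8 chose the cells, their own ratio to the 0-marker cells is fixed by the rule and is not given. Each marker was read instead in cells chosen on the other 7, at least 5 UMIs against 0. Cdc20 was then at 1054 CPM against 24.2 CPM in TKO1, a log2 ratio of 5.45 (5.10 to 5.81), and at 423 against 15 CPM in TKO2, a log2 ratio of 4.81 (4.36 to 5.30). Birc5 was at 1045 against 6.69 CPM in TKO1, a log2 ratio of 7.29 (6.66 to 7.99), and at 648 against 37.3 CPM in TKO2, a log2 ratio of 4.12 (3.83 to 4.42). These are the lowest and the highest ratio in TKO1, and the highest and the lowest in TKO2, so the order of the markers was not the same in the tumors. The median over the 8 was 6.36 in TKO1 and 4.35 in TKO2. A left-out marker was detected in 61.8 to 83.3% of the cells chosen by the other 7 in TKO1 and in 46.8 to 87.3% in TKO2, against 0.632 to 2.96% and 2.3 to 8.73% of the cells with 0 UMIs of the other 7.

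**Figure D2:**
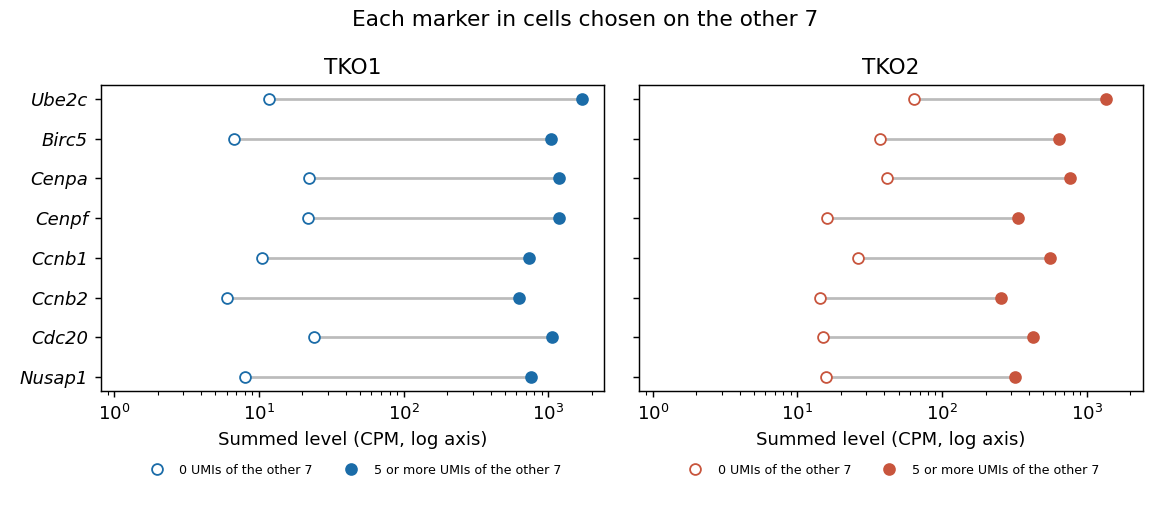
Summed level of each marker (CPM, log axis) in cells with 0 UMIs (open points) and with at least 5 UMIs (filled points) of the other 7 markers, 1 panel per tumor. The lowest log2 ratio was 5.45 in TKO1 and 4.12 in TKO2, and in TKO2 the open points sit higher than in TKO1 for all markers but Cenpf and Cdc20.

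MuvB complexes bind promoters through the cell cycle genes homology region, or CHR, read here as TTTGAA, and late cell cycle promoters often carry CCAAT boxes bound by NF-Y. The promoters of 5 genes of the program are printed because their letters hold these motifs close to the start, and that of Nusap1 because it holds neither. They are RefSeq sequences of GRCm38.p6, 5′ to 3′ on the strand of the gene, from 110 bases before to 30 bases after the RefSeq start. Capitals mark TTTGAA or CCAAT on either strand, the reverse forms being TTCAAA and ATTGG.
Ube2c, chr2:164769819-164769958, plus strand: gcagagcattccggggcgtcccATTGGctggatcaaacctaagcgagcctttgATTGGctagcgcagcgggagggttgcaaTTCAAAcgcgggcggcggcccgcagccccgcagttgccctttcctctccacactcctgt
Cdc20, chr4:118437314-118437453, minus strand: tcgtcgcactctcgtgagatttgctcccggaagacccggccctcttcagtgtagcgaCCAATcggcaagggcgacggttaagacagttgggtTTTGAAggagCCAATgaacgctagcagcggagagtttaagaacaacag
Ccnb2, chr9:70421525-70421664, minus strand: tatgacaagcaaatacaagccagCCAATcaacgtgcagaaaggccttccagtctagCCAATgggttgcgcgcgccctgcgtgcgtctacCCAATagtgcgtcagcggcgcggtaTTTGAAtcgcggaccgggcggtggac
Cenpa, chr5:30666776-30666915, plus strand: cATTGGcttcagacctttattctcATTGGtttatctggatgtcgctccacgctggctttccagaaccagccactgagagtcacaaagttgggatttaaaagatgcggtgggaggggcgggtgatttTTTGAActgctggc
Cdk1, chr10:69352883-69353022, minus strand: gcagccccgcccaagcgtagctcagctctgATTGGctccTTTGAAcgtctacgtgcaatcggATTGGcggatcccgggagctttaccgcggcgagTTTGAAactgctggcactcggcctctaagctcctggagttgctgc
Nusap1, chr2:119618188-119618327, plus strand: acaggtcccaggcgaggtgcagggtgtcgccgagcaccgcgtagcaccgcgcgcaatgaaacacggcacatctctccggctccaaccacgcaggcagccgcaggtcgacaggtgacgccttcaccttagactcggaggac

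TTTGAA began 29 bases before the start in Ube2c, 18 before it in Cdc20, 71 and 15 before it in Cdk1, and at base 5 and base 17 of the transcript in Ccnb2 and Cenpa. A window of 300 bases, 250 before and 50 after the start, held TTTGAA in 5 of the 8 markers and CCAAT in 6. Neither motif was in the window of Birc5 or Nusap1, and Ccnb1 held CCAAT only. Among the 86 genes with a promoter in the table of the 112 that were at least 2-fold higher in mitotic cells of both tumors, 57.0% held TTTGAA, 73.3% held CCAAT and 50% held both. Among all 27025 promoters the shares were 18.1%, 37.9% and 7.12%, and among 3870 promoters of genes tested they were 11.9%, 39.4% and 5.25%. The 20 matched promoters of the 22 genes at least 2-fold lower in both held CCAAT in 60% and TTTGAA in 10%, so that CCAAT was above its share among genes tested on both sides. A match of letters is not a binding site, and a window without a match says nothing of the factor.

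More genes differed by 2-fold in TKO1 than in TKO2, and most of those higher in TKO2 were higher in TKO1 too. Of 4912 genes with at least 20 CPM over the eligible cells of each tumor, 2.44% were at least 2-fold higher in mitotic cells of both tumors, 120 genes with the 8 markers and 112 without them, and 0.448%, or 22 genes, were at least 2-fold lower in both. Taken singly, TKO1 had 5.5% (270 genes) higher and 3.18% lower by this fold, and TKO2 2.63% (129 genes) and 1.43%. The calls used the ratio without its interval. The mitotic cells held 520966 UMIs in TKO1 and 3211394 in TKO2, so counting error was larger in TKO1. Its part in the larger number of calls there was not tested. Of the 112, 59 were in the mitosis lists and 43 in no list. The median log2 ratio over all genes tested was -0.01 in each tumor, and 0 genes were 2-fold higher in one tumor and 2-fold lower in the other. Across the 4904 genes other than the markers, the ratios of the tumors had a Pearson correlation of 0.756 and a Spearman correlation of 0.477. These are across genes, which are not independent replicates, and the Pearson value was 0.594 over the 4834 genes outside the mitosis lists. Since cells were chosen on mitotic transcripts, these counts describe the chosen cells and have no test.

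**Figure D3:**
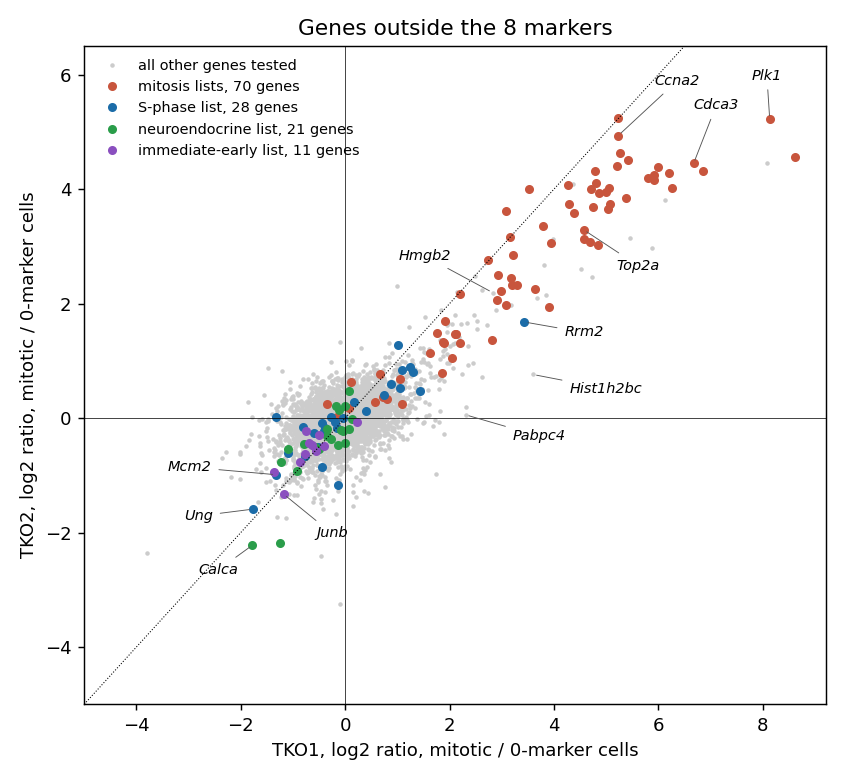
Log2 ratio of mitotic to 0-marker cells in TKO1 (horizontal axis) and TKO2 (vertical axis) for each gene tested outside the 8 markers, with the dotted line at equal ratios and colors for 4 gene lists. The mitosis genes lie mostly in the upper right, 59 of 70 past 2-fold in both tumors, beside 2.44% of all genes tested. Of the 70, 43 were under the level filter in the 0-marker cells of at least 1 tumor. No gene lies 2-fold up in one tumor and 2-fold down in the other.

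The 7 mitosis lists held 110 genes other than the markers, of which 70 passed the level filter, and 59 of the 70 were at least 2-fold higher in both tumors, against the 2.44% of all genes tested. None of the 70 was 2-fold lower in either. The median log2 ratio of the 70 was 3.71 in TKO1 and 3.07 in TKO2. The summed level of all 110 was 23412 CPM in mitotic and 3456 CPM in 0-marker cells of TKO1 and 13006 and 2841 CPM in TKO2. The filter of at least 20 CPM was set over all eligible cells, mitotic cells included, so members could pass through the mitotic cells alone. Of the 70, 43 were under 20 CPM in the 0-marker cells of at least 1 tumor. Such a member passed there through the mitotic cells or the cells with 1 to 4 marker UMIs. A member that passed through the mitotic cells alone had to be higher in them. Of the 27 at 20 CPM or more in the 0-marker cells of both tumors, 18 were at least 2-fold higher in both. The members under the filter were not counted, so the share of all 110 is not given by these values.

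The kinases that run mitosis were read as 1 list. Of those tested, only Cdk1 was over the level filter in the 0-marker cells of both tumors. Plk1, the polo-like kinase of mitotic entry and spindle assembly, was at 180 CPM in mitotic and 0.643 CPM in 0-marker cells of TKO1, which is 2 UMIs, and at 101 and 2.72 CPM in TKO2. Its log2 ratio was 8.13 (6.24 to 11.20) and 5.22 (4.16 to 6.55). Aurka, the centrosomal Aurora kinase, had ratios of 5.06 and 4.02. With the 0-marker cells weighted to the depth of the mitotic cells its ratios were 4.74 and 2.73. Aurkb, the Aurora kinase of the chromosomal passenger complex, had unweighted ratios of 6.26 and 4.02. Cdk1 itself was at 760 against 55.0 CPM in TKO1 and at 559 against 54.7 CPM in TKO2, ratios of 3.79 (3.53 to 4.06) and 3.35 (3.10 to 3.61). All 5 kinases tested of 12 listed were more than 2-fold higher in both tumors, with medians of 5.06 and 4.02 and beside 2.44% of all genes tested, but 4 of them, all but Cdk1, were under 20 CPM in the 0-marker cells of at least 1 tumor.

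Cyclin A2, the product of Ccna2 and a CDK partner from S phase to early mitosis, was at 326 against 8.69 CPM in TKO1 and at 273 against 8.93 CPM in TKO2. Its log2 ratios were 5.23 (4.64 to 5.87) and 4.94 (4.34 to 5.60). Of the 9 cyclin and CDK regulators tested of 12 listed, 7 were at least 2-fold higher in both, beside 2.44% of all genes tested. In the 0-marker cells of at least 1 tumor 4 of the 9 were under the level filter, and of the other 5, 4 were called. The 7 included the CDK subunits Cks1b, at 3.64 and 2.25, and Cks2, at 3.94 and 3.05, the phosphatase genes Cdc25b, Cdc25c and Cdkn3, and Cdkn2d, an inhibitor of CDK4 and CDK6, at 2.90 and 2.05. Reads of Cks1b may be shared with its retrocopy Cks1brt, outside the lists and picked after its values were seen, which had ratios of 3.85 and 2.14. Cdkn2c, another inhibitor of CDK4 and CDK6, was the member on the other side in TKO1, at -0.34 against 0.24 in TKO2, and Pkmyt1, which codes for an inhibitory kinase of CDK1, was at 0.11 and 0.63.

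Substrates, regulators and subunits of the anaphase-promoting complex were read as 1 list. Pttg1, which codes for securin, was at 799 against 23.8 CPM in TKO1 and 368 against 27.6 CPM in TKO2, with log2 ratios of 5.07 (4.71 to 5.44) and 3.74 (3.39 to 4.11). Cdca3, a trigger of mitotic entry, had 6.67 (6.02 to 7.40) and 4.45 (3.95 to 4.99), Mad2l1, of the spindle checkpoint, 2.99 and 2.21, and Fbxo5, the inhibitor EMI1, 3.22 and 2.85. The subunits Anapc11, Cdc16 and Cdc26 had ratios between -0.15 and 0.58, and Anapc15 had 1.09 and 0.24. In all 7 of 11 members tested were at least 2-fold higher in both tumors, beside 2.44% of all genes, and these 4 subunits were the ones that were not. In the 0-marker cells of at least 1 tumor 3 of the 11 were under the level filter, and of the other 8, 4 were called.

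Kinetochore and spindle genes that reached the level filter mostly did so from low levels in 0-marker cells. Of 14 kinetochore and centromere genes tested of 23 listed, 13 were at least 2-fold higher in both tumors, with medians of 4.11 and 3.37, and all 16 spindle genes tested of 26 listed were, with medians of 4.82 and 3.77, beside 2.44% of all genes tested. In the 0-marker cells of at least 1 tumor, 9 of the 14 and all 16 were under the level filter. Of the other 5 kinetochore genes, 4 were called, and the counts are not read as a result for either list. Spc25, of the NDC80 complex that holds microtubules, was at 503 against 15.4 CPM in TKO1 and at 435 against 34.5 CPM in TKO2. Prc1, which bundles the microtubules of the central spindle, was at 574 against 19.6 CPM and at 160 against 10.5 CPM. The mitotic cells of TKO1 held more Prc1 than those of TKO2, and both were far over their 0-marker cells. Hmmr, a spindle assembly factor, had the highest ratio of the spindle genes in TKO1, at 8.61 (6.73 to 11.67) over 2 UMIs in 0-marker cells, and 4.56 (3.62 to 5.71) in TKO2. Of the motors, Kif11 had 5.99 and 4.38, Kif23 5.00 and 3.96 and Kif22 3.15 and 3.17. The kinetochore gene that missed the fold in TKO2 was Cenpq, at 1.86 and 0.79.

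Chromosome structure genes followed. Top2a, the topoisomerase that untangles sister chromatids, was at 969 against 40.9 CPM in TKO1 and at 390 against 40.0 CPM in TKO2, log2 ratios of 4.57 (4.29 to 4.86) and 3.29 (3.0 to 3.59). Mki67, the proliferation antigen that coats mitotic chromosomes, was at 422 against 21.9 CPM and at 85.0 against 5.05 CPM, log2 ratios of 4.27 (3.87 to 4.69) and 4.07 (3.28 to 5.00). With the 0-marker cells weighted to the depth of the mitotic cells its ratios were 4.16 and 5.0. At 1000 UMIs per cell, 35.0% of mitotic cells of TKO1 held an Mki67 UMI (28.8 to 41.6%, unthinned 47.1%) and 7.85% of those of TKO2 did (6.26 to 9.68%, unthinned 19.1%), against 2.14% and 0.325% of 0-marker cells and 6.06% and 0% of macrophage barcodes. Before thinning, the median of the cells with at least 1000 UMIs held 2028.5 and 2770 UMIs among mitotic cells, 1331 and 1758 among 0-marker cells and 1457 and 1691.5 among macrophage barcodes. With 82 macrophage barcodes in TKO2, the 0% allows a share of up to 3.66% by the same limit of 3 cells.

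The condensin genes Smc4, at 2.94 and 2.50, Smc2, at 3.91 and 1.93, and Ncapg, at 5.26 and 4.63, and the passenger complex gene Cdca8, at 5.92 and 4.16, were higher in mitotic cells of both tumors. Of the cohesin genes, Rad21 had 1.87 and 1.32, Smc3 0.81 and 0.33 and Smc1a 0.67 and 0.77. In all 9 of 12 chromosome condensation genes tested were at least 2-fold higher in both. Beside them stand the 2.44% of all genes tested and the level filter, which 5 of the 12 did not reach in the 0-marker cells of at least 1 tumor, while 4 of the other 7 were called. Of the cytokinesis list, 4 of 5 tested genes were at least 2-fold higher in both, and all of the 5 but Racgap1 were under the filter in 0-marker cells of at least 1 tumor. The 4 included Ect2 and Racgap1, whose products act in RhoA control at the division plane, at 4.75 and 3.69 and at 3.17 and 2.44.

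**Figure D4:**
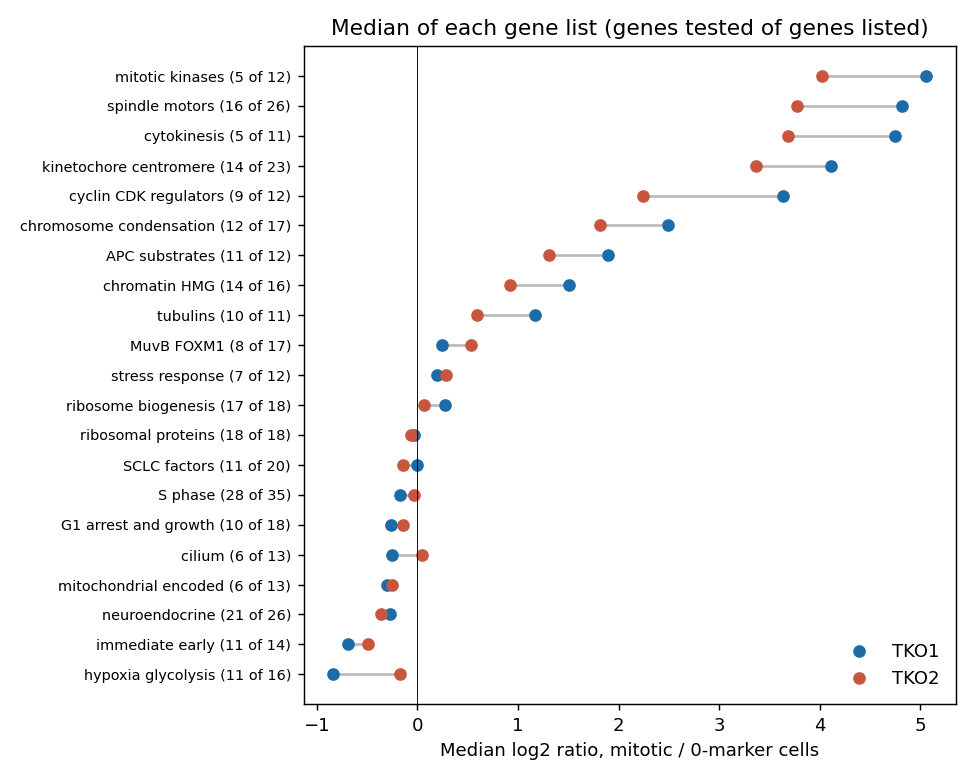
Median log2 ratio of mitotic to 0-marker cells for each gene list, 1 point per tumor, with the number of genes tested and listed. Lists of mitosis genes lie between 1.31 and 5.06, the S-phase list near 0 at -0.18 and -0.03, and the immediate-early list at -0.69 and -0.49.

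Of the chromatin list and of the tubulins, 3 genes each were at least 2-fold higher in mitotic cells of both tumors. Hmgb2, a high-mobility-group protein of cycling cells, was at 3614 against 511 CPM in TKO1 and at 2576 against 564 CPM in TKO2, ratios of 2.82 (2.73 to 2.92) and 2.19 (2.11 to 2.27). It was 1 of 3 genes of the chromatin list, of 14 tested, that were at least 2-fold higher in both. The others were the histone variant gene H2afx, at 3.68 and 2.10, and Arl6ip1, at 2.49 and 2.49. Arl6ip1 was in this list though it codes for a membrane-shaping protein of the endoplasmic reticulum. In TKO1 singly 12 of the 14 were, beside 5.5% of all genes tested there and 2.44% in both. The medians of this list were 1.51 and 0.92. Among the tubulins and Stmn1, whose product destabilizes microtubules, 3 of 10 tested were at least 2-fold higher in both, Tuba1c at 3.17 and 1.98, Tubb4b at 1.23 and 1.59 and Tubb6 at 1.87 and 1.09. In TKO1 singly 6 of the 10 were, beside 5.5% of all genes tested, and in TKO2 3, beside 2.63%. Stmn1 was at 5235 against 2646 CPM in TKO1 and at 3275 against 2414 CPM in TKO2, and Tubb5 at 2670 against 753 and at 3423 against 1986 CPM. Tubulin genes are near-identical copies in part of their sequence, and how reads were split among them cannot be told from the counts. The linker histone gene H1f0, which was in no list and was picked after its values were seen, was at 2676 against 910 CPM and at 1951 against 890 CPM.

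The regulators of the program were mostly low. Foxm1, the activator of late cell cycle genes, held 13 UMIs in mitotic cells and 0 in 0-marker cells of TKO1. With a floor of 3 UMIs for the 0-marker cells as a group this is 25.9-fold higher, a value that leaves out counting error. In TKO2 Foxm1 held 71 against 4 UMIs, a log2 ratio of 3.83 (2.41 to 5.75). It did not reach the level filter. Of 17 genes of the DREAM and MuvB complexes, FOXM1 and NF-Y, 8 were tested, and Nfyb, an NF-Y subunit, was at least 2-fold higher in both, beside 2.44% of all genes tested, at 1.09 (0.64 to 1.52) and 1.00 (0.73 to 1.28). E2f5 was at 1.44 and 0.68, the MuvB core genes Lin9 at 0.07 and 0.40 and Lin37 at -0.21 and -0.33, and E2f4 at 0.67 and -0.02.

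S-phase genes went both ways. Over the 28 S-phase genes tested of 35 listed, the median log2 ratio was -0.18 in TKO1 and -0.03 in TKO2. In both tumors 2 genes were at least 2-fold higher and 1 was at least 2-fold lower, beside 2.44% and 0.448% of all genes tested. In TKO1 singly 7 were higher and 4 lower by this fold, beside 5.5% and 3.18%. In TKO2 singly 2 were higher and 2 lower, beside 2.63% and 1.43%. The S-phase gene at least 2-fold lower in both tumors was Ung, the uracil-DNA glycosylase, at 21.1 against 72.1 CPM in TKO1 and at 86.3 against 260 CPM in TKO2, log2 ratios of -1.77 (-2.79 to -0.90) and -1.59 (-1.80 to -1.39). Mcm2, a subunit of the replicative helicase, was at 55.7 against 139 CPM and at 117 against 233 CPM, ratios of -1.32 (-1.92 to -0.78) and -0.99 (-1.18 to -0.80). Mcm2 missed the 2-fold limit in TKO2, and so did Mcm3, at -1.09 and -0.62. With the 0-marker cells weighted to the depth of the mitotic cells Mcm2 passed the limit in both, at -1.48 and -1.09. Mcm6, without the weighting, missed it in both, at -0.78 and -0.66.

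Rrm2 and Clspn were the S-phase genes at least 2-fold higher in both. Rrm2, the regulated subunit of ribonucleotide reductase, was at 511 against 47.3 CPM in TKO1 and at 447 against 140 CPM in TKO2, log2 ratios of 3.43 (3.14 to 3.73) and 1.68 (1.51 to 1.85). Clspn, which codes for the checkpoint mediator claspin, was at 1.00 and 1.27, Rrm1 at 1.09 and 0.84 and Atad2, of a chromatin ATPase, at 1.24 and 0.89. The 0-marker cells held S-phase transcripts, and only 383 of them in TKO1 and 41 in TKO2 had 0 UMIs of the S-phase list.

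Levels along the number of marker UMIs, which the rule used, are given as a description. In TKO2 Rrm2 was at 140 CPM in cells with 0 marker UMIs, 460 CPM with 1 to 4, 574 CPM with 5 to 9, 432 CPM with 10 to 19 and 298 CPM with 20 or more, so that its highest level was among the cells with the fewest marker UMIs that counted as mitotic. Mcm2 went from 233 to 212, 155, 105 and 81.5 CPM over the same bins, and Cdk1 from 54.7 to 219, 417, 569 and 732 CPM. In TKO1 Rrm2 was highest with 10 to 19 marker UMIs, at 715 CPM, and stood at 446 CPM with 20 or more, while Ung was at 72.1, 42.7, 57.3, 21.0 and 0 CPM and Mcm2 at 139, 153, 65.5, 42.1 and 62.3 CPM. The summed mitosis lists were at 16014, 21514 and 29469 CPM in the bins of 5 to 9, 10 to 19 and 20 or more in TKO1 and at 10578, 13173 and 15998 CPM in TKO2. From 0 to 20 or more marker UMIs, the summed S-phase list was at 2891, 3439, 3449, 4033 and 3052 CPM in TKO1. In TKO2 it was at 4373, 5460, 5492, 4540 and 3377 CPM, so mitotic cells with few marker UMIs held S-phase transcripts too. Depth moved with the bins, from a median of 1331 to 2287 UMIs within the mitotic cells of TKO1 and from 2341.5 to 3633 in TKO2, and its part in these values was not tested.

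**Figure D5:**
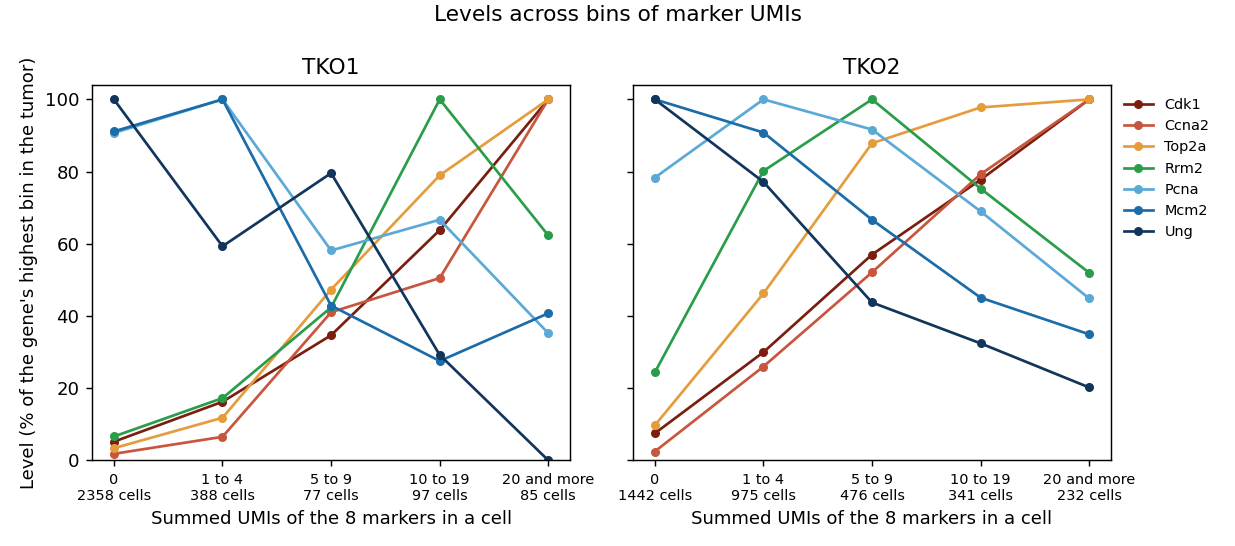
Level of 7 genes as percent of the highest bin of each gene in that tumor (vertical axis) across bins of summed marker UMIs per cell (horizontal axis, with cells per bin), 1 panel per tumor. Cdk1, Ccna2 and Top2a are highest in the last bin, Rrm2 peaks at 10 to 19 in TKO1 and at 5 to 9 in TKO2, and Mcm2 and Ung are lower in the last bin than with 0 marker UMIs.

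Calca and Resp18 were the neuroendocrine genes at least 2-fold lower in mitotic cells of both tumors, 2 of 21 tested and 26 listed, beside 0.448% of all genes tested. None of the 21 was 2-fold higher in both, beside 2.44%. Calca, which codes for the peptides calcitonin and CGRP, was at 5567 CPM in mitotic and 19079 CPM in 0-marker cells of TKO1 and at 31.1 and 145 CPM in TKO2, log2 ratios of -1.78 (-1.83 to -1.72) and -2.22 (-2.55 to -1.90). With the 0-marker cells weighted to the depth of the mitotic cells, the ratios of Calca were -1.63 in TKO1 and -0.52 in TKO2 and those of Resp18 -1.10 and -0.63, so neither kept the 2-fold limit in TKO2. In TKO2 40.4% of this weight fell on depth bins of 500 UMIs that together held 31 of the 0-marker cells, fewer than 20 in each, against 13.8% in TKO1. The level of Calca differed by far more between the tumors than between the groups of cells. At 1000 UMIs per cell 83.6% of mitotic and 97.5% of 0-marker cells of TKO1 held a Calca UMI, against 33.3% of macrophage barcodes. The unthinned shares were 90.7%, 98% and 39.7%. In TKO2 1.29% and 3.25% did (unthinned 2.67% and 5.55%), against 0% of 82 macrophage barcodes. By the limit of 3 cells that 0% allows up to 3.66%, which is over both shares. Resp18, of endocrine secretory granules, was at 870 against 2075 CPM in TKO1 and at 12.8 against 58.2 CPM in TKO2.

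Chga had log2 ratios of -0.93 (-1.11 to -0.75) and -0.92 (-1.17 to -0.68) and Scg5 -1.10 and -0.55. Insm1 was at -0.11 (-0.54 to 0.28) and 0.13 (-0.09 to 0.36), and Ncam1 was at 0.07 and 0.47. The list's median was -0.27 in TKO1 and -0.36 in TKO2, beside -0.01 over all genes tested, and it was -0.11 in TKO2 when the 0-marker cells were weighted to the depth of the mitotic cells. The summed level of the 26 listed genes was 11546 against 28082 CPM in TKO1, where Calca was the most abundant gene, and 2976 against 3779 CPM in TKO2.

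The 22 genes at least 2-fold lower in both tumors changed with the comparison cells and with the weighting. Against all cells with under 5 marker UMIs, 8 genes were lower in both, and all 8 were among the 22. With the 0-marker cells weighted to the depth of the mitotic cells 16 genes were lower in both, of which 5 were among the 22, namely Ung, Cited4, Igfbp5, Ccl5 and Nudt8, the last named after its values were seen. In TKO2 40.4% of this weight fell on depth bins that together held 31 of the 0-marker cells. Weighted ratios have no interval, and those of TKO2 are uncertain here and elsewhere. Junb, an AP-1 subunit, was at 1549 against 3514 CPM in TKO1 and at 105 against 263 CPM in TKO2, log2 ratios of -1.18 (-1.29 to -1.08) and -1.33 (-1.52 to -1.14), and -1.13 and -0.53 with the weighting. Ier2 was at -0.86 and -0.77, Jun at -0.77 and -0.63 and Fos at -0.64 and -0.46. Of the 11 immediate-early genes tested 10 had a ratio below 0 in TKO1 and 11 in TKO2. The list's medians were -0.69 and -0.49, beside -0.01 over all genes tested in each tumor, whose share below 0 is not given. Only Junb of this list passed the 2-fold limit in both, beside 0.448% of all genes tested, and with the weighting the ratio of Fos in TKO2 was 0.09. Immediate-early genes respond to tissue digestion as well as to growth signals, and what part the digestion has in these values was not tested. Btg2, an antiproliferative gene, was at 685 against 1403 CPM and at 146 against 309 CPM, ratios of -1.03 and -1.08, or -1.05 and -0.77 with the weighting, while Ccng2, of an unconventional cyclin, was at 134 against 23.5 CPM and at 46.7 against 15.9 CPM, ratios of 2.52 (2.02 to 3.01) and 1.55 (1.05 to 2.09), or 3.03 and 2.69 with the weighting. The CDK inhibitor genes Cdkn1a and Cdkn2a were at -0.02 and 0.22 and at 0.35 and -0.11.

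Further genes among the 15 lowest in both were Cited4, a transcriptional cofactor gene, at -1.66 and -1.47, C2cd4b at -1.32 and -1.27, Tmem184a at -1.13 and -1.75, Itm2c at -1.43 and -1.11, Igfbp5, which codes for a binding protein of insulin-like growth factors, at -1.08 and -1.33, Rab3a, of a GTPase of secretory vesicles, at -1.01 and -1.03, and Nov, a matricellular protein gene, at -0.97 and -1.02. Klf2, a zinc finger factor gene, was at -1.36 and -0.94. Nov and Klf2 were not 2-fold lower in both. With the weighting, Cited4 and Igfbp5 kept the 2-fold limit in both tumors, at -1.57 and -1.12 and at -1.23 and -1.38, while Itm2c was at -1.37 and -0.85, Tmem184a at -0.90 and -1.44, Nov at -0.92 and -0.89 and Klf2 at -1.49 and -0.21.

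Of 11 transcription factors named for SCLC that were tested, of 20 listed, 0 were at least 2-fold higher and 0 at least 2-fold lower in both tumors, beside 2.44% and 0.448% of all genes, with medians of -0.01 and -0.14. Mycl was at 457 against 142 CPM in mitotic and 0-marker cells of TKO1, a log2 ratio of 1.68 (1.45 to 1.91), and at 33.0 against 36.5 CPM in TKO2, a ratio of -0.14 (-0.56 to 0.27). Within the mitotic cells of TKO1 it was at 795 CPM with 5 to 9 marker UMIs and 259 CPM with 20 or more. Mycn, which TKO2 expressed, was at 3157 against 2388 CPM there, a ratio of 0.40 (0.36 to 0.45), and at 11.5 against 12.9 CPM in TKO1. Elf3, an epithelial factor gene, was lower in both, at -1.38 (-1.81 to -0.98) and -0.94 (-1.29 to -0.59), and Sox11 was higher in both, at 0.83 (0.50 to 1.16) and 1.06 (0.89 to 1.23). The difference of the Mycl ratios between the tumors has no test, as each is 1 library.

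Hypoxia and glycolysis genes are given by their counts in each tumor, and the difference between the tumors was not tested. Over 11 tested of 16 hypoxia and glycolysis genes the median log2 ratio was -0.84 in TKO1 and -0.18 in TKO2, and 4 were at least 2-fold lower in TKO1 and 0 in TKO2, beside 3.18% and 1.43% of all genes. Aldoa, the glycolytic aldolase gene, was at 1833 against 4250 CPM in TKO1 and at 1170 against 1616 CPM in TKO2. Bnip3, a mitophagy gene induced by hypoxia, was at 589 against 1189 CPM and at 206 against 307 CPM. Both were lower in mitotic cells of each tumor, by less in TKO2. Ribosomal protein genes had medians of -0.03 and -0.06 over 18 genes, mitochondria-encoded genes -0.30 and -0.25 over 6, ribosome biogenesis genes 0.27 and 0.07 over 17, stress response genes 0.20 and 0.29 over 7, and cilium genes -0.25 and 0.05 over 6.

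The rule limits 2 kinds of other cells, and lists of 8 kinds were read beside the results. The 12 macrophage genes summed to 67.2 CPM in mitotic and 66.3 CPM in 0-marker cells of TKO1, with 5 and 3 of them at 0 UMIs, and to 22.1 and 110 CPM in TKO2, with 3 at 0 in each, Cd74 being the most abundant in every group. The defining genes Csf1r, Adgre1 and Mrc1 were at 0 UMIs in both groups of both tumors. Cd74 codes for the invariant chain of antigen presentation, and in TKO2 it was at 8.72 against 83.1 CPM. The 0-marker cells of TKO2 thus held more of it than the mitotic cells, and the immune chemokine gene Ccl5, picked after its values were seen, was at 1.92 CPM, which is 1 UMI, against 26.7 CPM in TKO1 and at 6.85 against 34.9 CPM in TKO2. The 8 club cell genes summed to 196 against 288 CPM and to 11.5 against 24.1 CPM, led by Scgb1a1. Type 2 alveolar genes summed to 15.4 against 36.7 CPM and to 0.623 against 0.388 CPM, led by Sftpc in TKO1, with 4 and 1 of 6 at 0 UMIs there and 5 and 5 in TKO2. Fibroblast genes summed to 7.68 against 18 and to 3.43 against 16.3 CPM, nearly all Dcn.

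Endothelial genes summed to 0 against 5.15 CPM in TKO1 and to 87.8 against 66.8 CPM in TKO2, of which Egfl7 made up 86.6 and 65.2 CPM while Cdh5, Kdr, Cldn5 and Esam were at 0 UMIs in both groups. T, NK and B cell genes summed to 0 against 16.1 CPM and to 11.2 against 19.8 CPM, led by Nkg7, erythroid genes to 0 against 2.9 CPM and to 5.61 against 1.55 CPM, led by Hbb-bs in the mitotic cells of TKO2, and neutrophil genes to 11.5 against 1.61 CPM and to 0.934 against 6.21 CPM. The part of other cells in the results was not tested. With cells held to 0 UMIs of Scgb1a1 and the macrophage genes, a limit chosen after seeing the data, 119 genes were at least 2-fold higher in both tumors, of which 114 were among the 120, and 24 were at least 2-fold lower, of which 18 were among the 22.

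Some ratios were far larger in TKO1 than in TKO2. Hist1h2bc, a replication-linked H2B histone gene, was at 1900 against 157 CPM in TKO1, a log2 ratio of 3.60 (3.44 to 3.76), and at 243 against 143 CPM in TKO2, a ratio of 0.76 (0.58 to 0.94). Pabpc4, of a poly(A)-binding protein, was at 388 against 78.5 CPM in TKO1 and at 79.1 against 76.1 CPM in TKO2, ratios of 2.30 (2.03 to 2.58) and 0.06 (-0.22 to 0.33), or 1.53 and -0.72 with 0-marker cells weighted to the depth of the mitotic cells. Ppie, Ttc9b and Hist3h2a had ratios of 1.73, 2.32 and 1.82 in TKO1 and of -0.03, 0.20 and 0.12 in TKO2. Levels in the 0-marker cells of the tumors were alike for Hist1h2bc and Pabpc4, and those in mitotic cells were not. Histone genes are near-identical copies, and replication-linked ones lack the long poly(A) tail this assay captures, so their levels are uncertain. Other ratios were lower in TKO1. E2f1, the E2F activator gene of the G1 to S change, was at 17.3 against 61.8 CPM in TKO1 and at 62.0 against 81.1 CPM in TKO2. Its ratios were -1.84 (-2.99 to -0.88) and -0.39 (-0.68 to -0.10), or -2.03 and -0.997 with the weighting. Gadd45g was at -1.49 (-1.88 to -1.12) and -0.18 (-0.29 to -0.06), or -1.31 and 0.03 with the weighting. The differences between the tumors were not tested.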

How the data were processed

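Single-cell RNA-seq of 2 tumors was used. The authors deposited 1 matrix of UMI counts per tumor, whole numbers per gene and cell barcode with no normalization. The submitters' processing notes name Cell Ranger, Seurat and mm10, with versions not given in the sources used here. Libraries held 5285038 and 8291430 UMIs.

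The members and gene lists were chosen with earlier results of these data known. Cells were selected as stated above, and counts were summed per tumor and group and scaled to CPM, so each log2 ratio compares 2 sums. Genes needed at least 20 CPM over the eligible cells of each tumor. Where a group held 0 UMIs, a floor of 3 UMIs for the group was used. No test was run, since there is 1 library per tumor and the cells compared were chosen on the values read. Intervals (95%, exact Poisson for levels, exact Clopper-Pearson for shares, exact conditional binomial for ratios) cover counting error only. Shares of cells were also read after thinning each cell to 1000 or 2000 UMIs, with shallower cells left out. No doublet caller was used, and an alternative left out the 5% of cells with most UMIs.

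Genes named were the 8 markers, the listed genes and the deleted genes Trp53 and Rbl2. Of 2510 genes with at least 50 CPM, the 20 highest and 15 lowest by the ratio nearer to 0 of both tumors were also named. So were the 10 with the largest difference between tumors each way. Of 27998 gene identifiers, 27645 matched GENCODE M21. Promoters were RefSeq sequences of GRCm38.p6. Rb1 was not analysed here. The values of 1 listed gene are not reported here. Alternatives changed the marker limit, depth, comparison cells, level filter, fold, scaling and weighting. Analyses used Python 3.11.15, numpy 2.4.6, scipy 1.17.1, pandas 2.3.3, matplotlib 3.10.9 and R 4.3.3 with edgeR 4.0.16, which gave TMM factors only. The scripts were tested on simulated data.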

Additional observations from a re-analysis of the deposited data

Results flagged for a closer look

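Of 278 named or listed genes tested, 5 had a counting interval above 0 in TKO1 and below 0 in TKO2. The share over all 4912 genes tested is not given, so the count is not read as high or low. These opposite directions were not tested, since each tumor is 1 library. Tubb3, a neuronal beta-tubulin gene, had log2 ratios of mitotic to 0-marker cells of 1.11 (0.46 to 1.73) in TKO1 and -0.37 (-0.52 to -0.22) in TKO2. Cdkn1c, which codes for the CDK inhibitor p57, had 0.48 (0.20 to 0.75) and -0.23 (-0.41 to -0.06), and Tcf3, an E-protein gene, had 0.61 (0.17 to 1.04) and -0.22 (-0.43 to -0.01). The ribosomal protein genes Rplp0 and Rps19 had 0.27 and 0.078 in TKO1 and -0.03 and -0.08 in TKO2.

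At least 5 marker UMIs were also found in barcodes outside the eligible cells. Among barcodes over the Scgb1a1 limit in TKO1, 7 of 110 held them (6.36%, 2.6 to 12.7%), and among those over the macrophage limit in TKO2, 7 of 88 did (7.95%, 3.26 to 15.7%). In the other tumor of each class the counts were 3 of 78 barcodes over the macrophage limit in TKO1 (3.85%, 0.8 to 10.8%) and 1 of 14 over the Scgb1a1 limit in TKO2 (7.14%, 0.181 to 33.9%). Among barcodes with 500 or fewer detected genes, 37 of 1321 held them in TKO1 (2.8%, 1.98 to 3.84%) and 15 of 248 in TKO2 (6.05%, 3.42 to 9.78%).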

How the results depend on the processing

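The share of mitotic cells followed the marker limit and depth. It was 10.7% in TKO1 and 39.8% in TKO2 with at least 3 marker UMIs, 6.06% and 16.5% with at least 10, and 22% and 44.2% among cells with more than 1000 genes. With marker UMIs at 0.2% or more of the cell it was 10.2% in TKO1 and 31.2% in TKO2. At 1000 UMIs per cell it was 8.19% and 15.2%. Against 120 genes at least 2-fold higher and 22 lower in both tumors, a minimum of 10 UMIs gave 279 and 181, a minimum of 50 CPM gave 55 and 10, and a 1.5-fold limit gave 219 and 144. Against all cells with under 5 marker UMIs 8 genes were lower, and the mitosis medians were 3.34 in TKO1 and 1.88 in TKO2. With at least 50 CPM the mitosis medians were 3.04 and 2.19. Against 0-marker cells that also held 0 S-phase UMIs, 101 genes were lower, 59 of the 120 higher genes were shared, and the mitosis medians were 4.34 and 0.80. These are 383 cells of TKO1 and 41 of TKO2, with 400975 and 44284 UMIs, so the floor of 3 UMIs stands at 7.48 and 67.7 CPM, and 38 of 70 mitosis genes were at it in TKO2. The S-phase medians of 3.19 and 0.79 and the mean log2 ratios of 0.92 for Ung and 1.84 for Mcm2, against -1.68 and -1.16, follow from the choice of cells at 0 UMIs of these genes and from the floor, and say nothing of them. E2f1, outside the list, had 5 and 1 UMIs there, and its mean ratio was 0.96 against -1.11. The higher calls were 84.5% of all calls, 61.7% in that comparison and 60.7% with the minimum of 10 UMIs. Weighting 0-marker cells to the depth of the mitotic cells gave a neuroendocrine median of -0.11 in TKO2, 125 higher genes, of which 110 were among the 120, and 16 lower, of which 5 were among the 22. It moved the mean log2 ratio of Calca from -2.0 to -1.08, of Resp18 from -1.72 to -0.87, of Ckap5 from 2.18 to 1.08, of Aurka from 4.54 to 3.74, of Prc1 from 4.40 to 5.14 and of Pabpc4 from 1.18 to 0.41. The minimum of 50 CPM tested 2518 genes and that of 10 UMIs 10400, against 4912. The cause of the changes with the level filter and with the weighting was not tested. Over 52 named genes and their alternatives, 5 of 624 values changed sign. Mitotic and 0-marker cells were compared within each tumor, and no test was run. Depth limits the genes near 0 UMIs in 0-marker cells, such as Plk1 and Hmmr.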
